A study of Rattus norvegicus with 6 samples.

Results

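Genes that mark neurons of the thalamus were followed in rat brain tissue after a bleed within the brain, intracerebral hemorrhage (ICH). They are Slc17a6, Tcf7l2, Prkcd, Lef1, Ntng1, Rgs16 and Lhx2. Probes were assigned to them through the RefSeq transcript accession that the scanner files give for each probe, which found 8 probes for 6 of the 7 genes, out of 30367 probes and 15443 named genes on the array. No probe matched Tcf7l2 in this way, and it was not analysed here. The study hybridized total RNA to 6 single-channel arrays, 3 from peripheral brain tissue of rats with ICH (ICH 1 to 3) and 3 from brain tissue of rats with a sham operation (sham 1 to 3). All samples carry the label day 1. The title of the series speaks of injury near the hematoma, which is clotted blood. The strain, the way the bleed was made, the brain region dissected and any pooling of animals are not given in the sources used here. The labels call the samples of a group biological replicates.

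The thalamus relays sensory and motor signals to the cortex, and its relay neurons release glutamate. They load it into synaptic vesicles with the transporter VGLUT2, the product of Slc17a6, whereas most cortical excitatory neurons use VGLUT1, the product of Slc17a7. In mice, Tcf7l2 and Lef1, transcription factors that act with beta-catenin in Wnt signalling, stay on in thalamic neurons after development. None of the genes is confined to the thalamus: Slc17a6 is also used in hypothalamus and midbrain, Lef1 in T cells and brain endothelium, and Lhx2 in cortex and hippocampus.

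Because TCF and LEF proteins bind DNA at a short shared motif, the promoters of the genes (250 bases before to 50 after the start site, RefSeq, build GRCr8) were searched on both strands for CTTTGAT and CTTTGAA, which do not overlap each other at a single site. All 7 genes had a promoter in the RefSeq table. A match was found in Slc17a6 only, at 25 bases before the start site, while 8.73% of 33365 promoters of that length held either motif. The promoters of Slc17a6, Prkcd and Lef1 are shown, the first because it holds the match and the other 2 because these genes had the largest gap between ICH 2 and sham 1 and the next array; capitals mark the motif. Those of Slc17a6 (chr1:110348197-110348496) and Lef1 (chr2:222340463-222340762) lie on the plus strand and that of Prkcd (chr16:5805790-5806089) on the minus strand, and all are printed 5′ to 3′ along the gene.
Slc17a6: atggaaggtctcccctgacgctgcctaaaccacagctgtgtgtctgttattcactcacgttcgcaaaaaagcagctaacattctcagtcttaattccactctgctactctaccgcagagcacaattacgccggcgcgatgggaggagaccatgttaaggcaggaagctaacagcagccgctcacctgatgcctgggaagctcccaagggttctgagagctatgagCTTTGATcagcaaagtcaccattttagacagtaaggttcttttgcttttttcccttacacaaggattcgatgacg
Prkcd: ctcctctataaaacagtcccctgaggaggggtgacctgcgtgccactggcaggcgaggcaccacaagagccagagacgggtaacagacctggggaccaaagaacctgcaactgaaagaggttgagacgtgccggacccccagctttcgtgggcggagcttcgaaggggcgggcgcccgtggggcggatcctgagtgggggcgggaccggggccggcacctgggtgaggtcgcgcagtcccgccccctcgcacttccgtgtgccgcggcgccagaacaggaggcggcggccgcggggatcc
Lef1: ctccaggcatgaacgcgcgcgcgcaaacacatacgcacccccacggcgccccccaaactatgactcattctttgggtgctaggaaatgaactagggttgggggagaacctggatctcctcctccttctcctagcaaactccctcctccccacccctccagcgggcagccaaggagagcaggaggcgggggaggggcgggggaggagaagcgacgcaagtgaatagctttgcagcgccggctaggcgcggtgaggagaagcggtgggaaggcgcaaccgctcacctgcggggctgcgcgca

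All 8 probes were well above background in every spot on all 6 arrays. The values below are the deposited log2 values, in which 0 lies close to the 75th percentile of each array. Differences are ICH minus sham. Levels of different genes cannot be compared, since each comes from its own probe. Of the arrays as a whole, 81.8% to 85.4% of spots were well above background on ICH arrays and 83.4% to 84.1% on sham arrays, and 0 spots were saturated. Correlations across genes were 0.949 to 0.980 among ICH arrays and 0.985 to 0.991 among sham arrays. ICH 2 was the array least like the others, correlating with them at 0.946 (sham 1) to 0.960 (ICH 1). Every pair of arrays without ICH 2 was at 0.967 or more. ICH 2 also had the lowest share of spots well above background, 81.8%. All arrays were on 1 slide and in 1 scan. Their number, 3 a group, limits the precision.

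Apart from Rgs16, where the groups lay 0.0067 apart, the genes did not separate ICH from sham. In 4 of the 6 the lowest values came from 1 array of each group, ICH 2 and sham 1. The other 4 arrays lay close together for Prkcd, while ICH 1 lay between for Slc17a6 and Ntng1. None of the 6 passed at an adjusted p under 0.05, as 0% of all 22183 rows tested did (limma, Benjamini-Hochberg adjustment). None passed at an unadjusted p under 0.05 either, where 14.7% of all rows did, 3267 rows in number. Of the 6, 2 were higher and 4 lower in ICH, with a median difference of -0.05, the same as the -0.05 of all rows, of which 9877 were higher and 12306 lower. Relative to the sham mean of each gene, the median of the 6 stood at 0.05, -1.11 and 0.64 on ICH 1 to 3 and at -0.99, 0.58 and 0.47 on sham 1 to 3. The median difference was 0.37 without ICH 2 and -0.67 without sham 1, the 2 arrays that moved it most in opposite directions. Centring on spike-in probes moved the median of all rows to 0.39. Relative to the median of all rows, the medians of the lists below kept their direction under each scaling, except those of the Wnt targets and of neurons in general and, here, of the 6 genes. In bulk tissue, fewer cells of a type and less RNA per cell cannot be told apart.

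**Figure D1:**
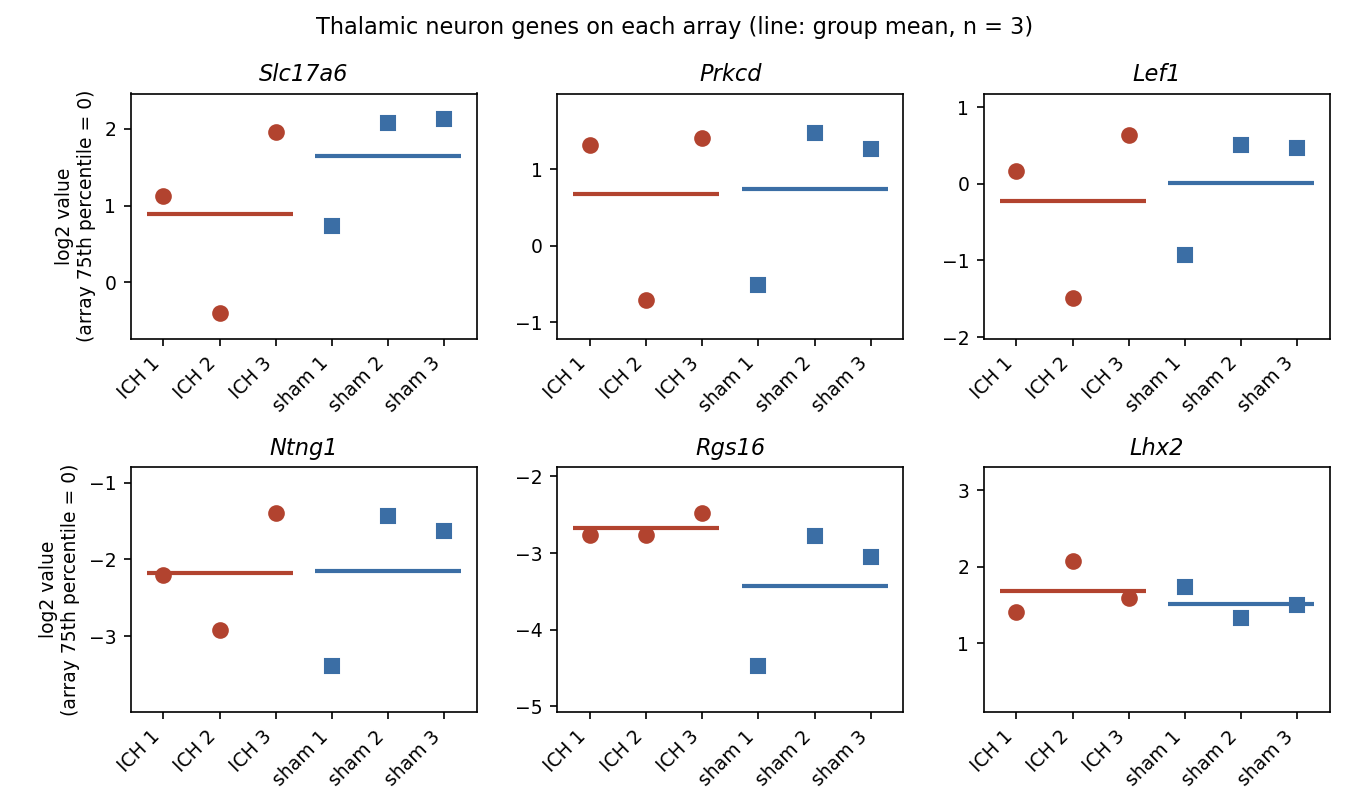
Log2 value of each gene on ICH arrays (red circles) and sham arrays (blue squares), with the mean of each group as a line (n = 3). The vertical axis puts the array 75th percentile at 0, which is approximate, and each panel spans the same height. For Slc17a6, Prkcd, Lef1 and Ntng1 the lowest 2 arrays are ICH 2 and sham 1; Rgs16 is low on sham 1 only, and Lhx2 spans 0.74.

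Slc17a6, the vesicular glutamate transporter gene, stood at 1.12, -0.40 and 1.96 on ICH 1 to 3, against 0.73, 2.07 and 2.13 on sham 1 to 3. ICH 2 was the lowest array and sham 1 the next, and the groups overlapped. Its mean was 0.89 ± 1.20 in ICH and 1.64 ± 0.79 in sham (SD, n = 3 each). The difference was -0.75 ± 0.68 (SE; adjusted p = 0.590 by limma; exact two-sided permutation test over the arrays, p = 0.5, where 0.1 is the smallest that 3 against 3 can give). Its 95% interval ran from -2.40 to 0.90. Slc17a6 spanned 5.76-fold over the 6 arrays, more than any other of the 6 genes. It was lower in ICH under every alternative setting and with any 1 array left out, by -0.10 without ICH 2 and by -1.28 without ICH 3, and never passed the test.

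The paralog Slc17a7, which the cortex uses, stood at -3.23, -3.21 and -3.53 in ICH and -4.46, -5.50 and -4.62 in sham, without overlap between the groups, as in 27.6% of all rows. Its difference of 1.53 ± 0.30 did not pass either (adjusted p = 0.263 by limma). Slc17a8, the VGLUT3 gene of scattered neuron types, differed by -0.20 ± 0.29.

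Prkcd, which encodes protein kinase C delta and is used as a marker of thalamic relay nuclei, showed the split between arrays most sharply. It stood at 1.31, -0.70 and 1.40 on ICH 1 to 3, against -0.51, 1.47 and 1.26 on sham 1 to 3. ICH 2 and sham 1 were low and close together, and the other arrays lay within a narrow band. In processed signal these were 12985, 3353 and 14233 in ICH and 3376, 13435 and 11057 in sham, means over 10 spots of the probe. The spots of Prkcd within an array had an SD of 0.01 to 0.04 on the log2 scale, far below the gap of 1.77 between its lowest 2 arrays and the next, which is 3.40-fold. The means were 0.67 ± 1.19 in ICH and 0.74 ± 1.09 in sham (SD, n = 3 each), a difference of -0.07 ± 0.76 (adjusted p = 0.969 by limma; exact permutation p = 0.7) with a 95% interval from -1.92 to 1.78. Without ICH 2 it was 0.61 and without sham 1 -0.70. The groups overlapped, and the spread within each group was larger than the difference.

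Of 6 other protein kinase C genes, 3 were higher and 3 lower (median -0.03, with a range of -0.05 to 0.05 when 1 array was left out and 0.09 after quantile normalization), and 0 passed. Prkce, the epsilon isoform, differed by 0.66 ± 0.14 (adjusted p = 0.299 by limma). All its ICH arrays lay above all sham arrays, which 10.3% of all rows showed. Prkch, the eta isoform, was the 1 of the 6 in which ICH 2 and sham 1 were the lowest arrays.

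Lef1, the Wnt-dependent transcription factor gene, stood at 0.17, -1.49 and 0.64 on ICH 1 to 3, against -0.93, 0.51 and 0.47 on sham 1 to 3. ICH 2 was again lowest and sham 1 next, with a gap of 1.11 up to the next array. The means were -0.23 ± 1.12 in ICH and 0.01 ± 0.82 in sham (SD, n = 3 each). The difference was -0.24 ± 0.66 (adjusted p = 0.868 by limma; exact permutation p = 0.7), with a 95% interval from -1.84 to 1.36. A second probe of Lef1 stood at -2.33, -4.00 and -1.76 in ICH and -3.88, -2.05 and -2.25 in sham, a difference of 0.03 ± 0.72 (adjusted p = 0.986 by limma over all probes). With each probe centred on its own mean, the 2 probes differed by at most 0.35 on any array.

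Partners of Lef1 in Wnt signalling were looked at next. Of 11 genes of the beta-catenin complex, its co-factors and its destruction complex, 8 were higher and 3 lower (median 0.15, but 0.09 without ICH 3 and 0.08 without sham 1), with 0 called. Pygo1, a co-activator, differed by 0.50 ± 0.24 and Bcl9l, an adaptor between beta-catenin and Pygo proteins, by -0.50 ± 0.19 (adjusted p = 0.377 and 0.320 by limma). Ctnnb1, the beta-catenin gene, stood at -1.13, -1.42 and -1.21 in ICH and -1.63, -1.32 and -1.33 in sham. Of 8 Wnt target genes 4 were higher and 4 lower (median -0.02, and -0.14 to 0.05 with 1 array left out), again with 0 called. Notum, which encodes a Wnt-inactivating enzyme, differed by -1.04 ± 0.54 and Axin2, a feedback inhibitor, by -0.57 ± 0.28. The related factor gene Tcf7l1 differed by -0.57 ± 0.14 (adjusted p = 0.299 by limma), at -2.98, -2.97 and -2.65 in ICH and -2.29, -2.31 and -2.29 in sham. Tcf7l1 was even across sham 1 to 3, where Lef1 was not.

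Ntng1 encodes netrin-G1, a membrane-anchored protein that thalamic axons carry into the cortex. It stood at -2.20, -2.93 and -1.39 on ICH 1 to 3, against -3.40, -1.43 and -1.63 on sham 1 to 3. Here sham 1 was the lowest array and ICH 2 the next, and ICH 1 lay between them and the rest. The means were -2.17 ± 0.77 in ICH and -2.15 ± 1.08 in sham (SD, n = 3 each), a difference of -0.02 ± 0.63 (adjusted p = 0.989 by limma; exact permutation p = 1) with a 95% interval from -1.55 to 1.51. A dimmer second probe stood at -5.22, -5.62 and -4.44 in ICH and -6.12, -4.60 and -4.64 in sham, a difference of 0.03 ± 0.50. After centring, the 2 probes of Ntng1 differed by at most 0.25 on any array. Lrrc4c, which encodes the receptor of netrin-G1, differed by -0.15 ± 0.16, and Lrrc4b, of the same receptor family, by 0.51 ± 0.17 (adjusted p = 0.305 by limma). Of the 3 measured partner genes 2 were higher and 1 lower (median 0.03, or -0.03 with each array centred on its median and -0.06 to 0.14 with 1 array left out), with 0 called.

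**Figure D2:**
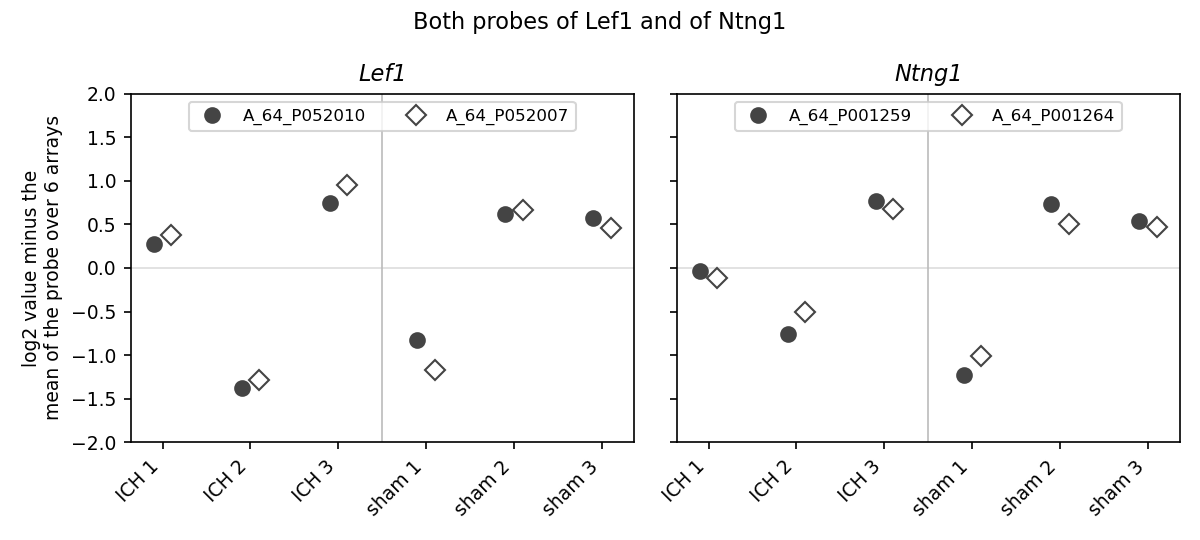
Log2 value minus the mean of the probe over the 6 arrays (vertical axis) for both probes of Lef1 and of Ntng1, with filled circles for the brighter probe and open diamonds for the dimmer one; ICH arrays are left of the grey line and sham arrays right. On each array the 2 probes of a gene lie within 0.35 for Lef1 and 0.25 for Ntng1, and ICH 2 and sham 1 are lowest for all 4 probes.

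Rgs16, which encodes a GTPase-activating protein that shortens G protein signalling, behaved differently on ICH 2. It stood at -2.77, -2.76 and -2.48 on ICH 1 to 3, against -4.47, -2.77 and -3.05 on sham 1 to 3. All ICH arrays lay above all sham arrays, but by 0.0067 only, less than the SD of up to 0.09 between the 2 spots of the probe within an array. Sham 1 was the 1 array far from the others. The means were -2.67 ± 0.16 in ICH and -3.43 ± 0.91 in sham (SD, n = 3 each). The difference of 0.76 ± 0.45 did not pass (adjusted p = 0.440 by limma; exact permutation p = 0.1, the smallest possible) and had a 95% interval from -0.33 to 1.85. Without sham 1 it was 0.24. Rgs16 is the 1 of the 6 genes with all ICH arrays above all sham arrays, beside 10.3% of all rows, and 0 of the 6 had them all below, beside 17.3%.

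Of 13 other RGS genes 4 were higher and 9 lower (median -0.21, but -0.10 without ICH 2, -0.14 without sham 1 and -0.37 without ICH 3), with 0 called. Rgs5, a marker of pericytes, differed by -0.62 ± 0.20 (adjusted p = 0.299 by limma) and Rgs12 by -0.60 ± 0.21 (adjusted p = 0.315). In 2 of the 13, Rgs3 and Rgs17, ICH 2 and sham 1 were the lowest arrays.

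Lhx2, a LIM homeodomain transcription factor gene, hardly varied. It stood at 1.41, 2.07 and 1.59 on ICH 1 to 3, against 1.73, 1.33 and 1.50 on sham 1 to 3. ICH 2 and sham 1, the lowest arrays for Slc17a6, Prkcd, Lef1 and Ntng1, were the highest arrays here, as in 9.96% of all rows. The means were 1.69 ± 0.34 in ICH and 1.52 ± 0.20 in sham (SD, n = 3 each), a difference of 0.17 ± 0.22 (adjusted p = 0.700 by limma; exact permutation p = 0.6). Its 95% interval, -0.35 to 0.70, was the narrowest of the 6. Of 9 other genes of the LIM homeodomain family and its co-factors 2 were higher and 7 lower (median -0.36), with 0 called. Lhx8 and Isl1, factors of forebrain cholinergic and striatal neurons, differed by -2.19 ± 1.08 and -1.94 ± 1.08, with ICH 2 at -4.60 and -6.80 as the lowest array in both. The median of these 9 was -0.22 without ICH 2, -0.91 without sham 1, -0.70 without ICH 3 and -0.55 without sham 3. Lhx1 and Isl2 were not well above background on ICH 2. With the filter on all 6 arrays, which drops Lhx1 and Isl2, the median was -0.09.

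**Figure D3:**
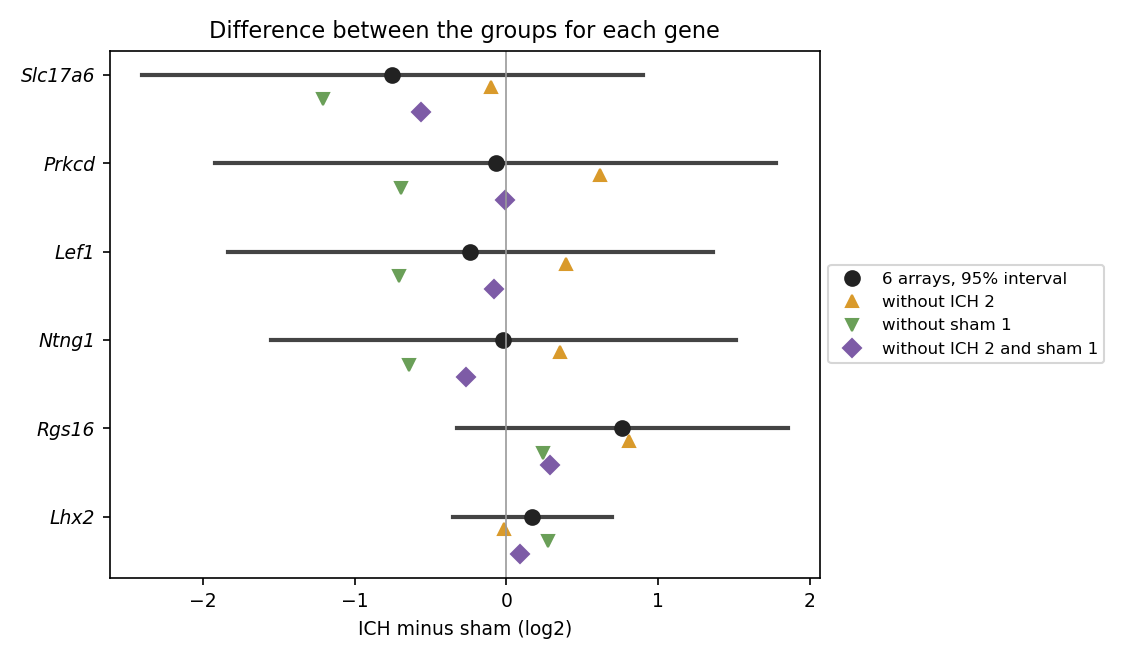
ICH minus sham on the log2 scale (horizontal axis) for each gene, with the 95% interval of the limma fit on 6 arrays (black) and the difference without ICH 2 (orange), without sham 1 (green) and without both (purple). All 6 intervals span 0, and for Prkcd, Lef1 and Ntng1 the difference is above 0 without ICH 2 and below 0 without sham 1.

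The position of an array on the slide was set beside these values, since sham 1 to 3 and ICH 1 lay in the first row and ICH 2 and ICH 3 in the second. Within the first row, which is also what the fit with the row as a block gives, the difference of ICH 1 from the sham mean was -0.52 for Slc17a6, 0.57 for Prkcd and 0.16 for Lef1. It was -0.05 for Ntng1, 0.67 for Rgs16 and -0.11 for Lhx2. The second row holds ICH arrays alone, so it gives no value. Sham 1, with low levels of most of the genes, lay in the first row and ICH 2 in the second.

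ICH 2 and sham 1 were the lowest 2 arrays for 4 of the 6 genes, where this held for 10.6% of all rows. They were so by more than 1 on the log2 scale for Prkcd and Lef1, and for 66 of all rows (0.298%). This pattern was chosen after the values were seen, and the shares describe it without a test. A list of 16 other thalamic genes was looked at in the same way. Of these, 13 were measured and 7 had ICH 2 and sham 1 as the lowest arrays, among them Shox2, Ramp3, Slitrk6, Lhx9, Plekhg1 and Cacna1g. Shox2, a homeobox gene of thalamic neurons in rodents, had the largest gap of any named gene that shares this order of arrays. It stood at 1.18, -2.77 and 1.81 on ICH 1 to 3 and -2.62, 1.91 and 1.84 on sham 1 to 3, so that 3.80 lay between its lowest 2 arrays and the next. Ramp3, a receptor-modifying protein gene, stood at 0.17, -1.72 and 0.65 in ICH and -1.91, 0.65 and 0.47 in sham. Slitrk6, a synaptic adhesion gene, stood at -0.09, -2.59 and 0.20 in ICH and -1.74, 0.38 and 0.11 in sham.

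Of the 13 other thalamic genes, 1 was higher and 12 lower in ICH, with a median of -0.41, and 0 passed. Gbx2, a homeobox gene that thalamic development needs, stood at -4.37, -6.00 and -2.38 in ICH and -4.05, -2.24 and -2.27 in sham (-1.40 ± 0.98, adjusted p = 0.504 by limma). Foxp2, a forkhead factor, stood at -5.60, -6.99 and -4.83 in ICH and -4.49, -4.05 and -4.82 in sham (-1.36 ± 0.55, adjusted p = 0.339), and was not well above background on ICH 2. The median of the 13 was 0.05 without ICH 2, while leaving out any other array kept it below 0, between -0.93 without ICH 3 and -0.21 without sham 3. Relative to the sham means, the median of the 13 stood at -0.10, -1.46 and 0.29 on ICH 1 to 3 and at -0.43, 0.41 and 0.36 on sham 1 to 3.

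**Figure D4:**
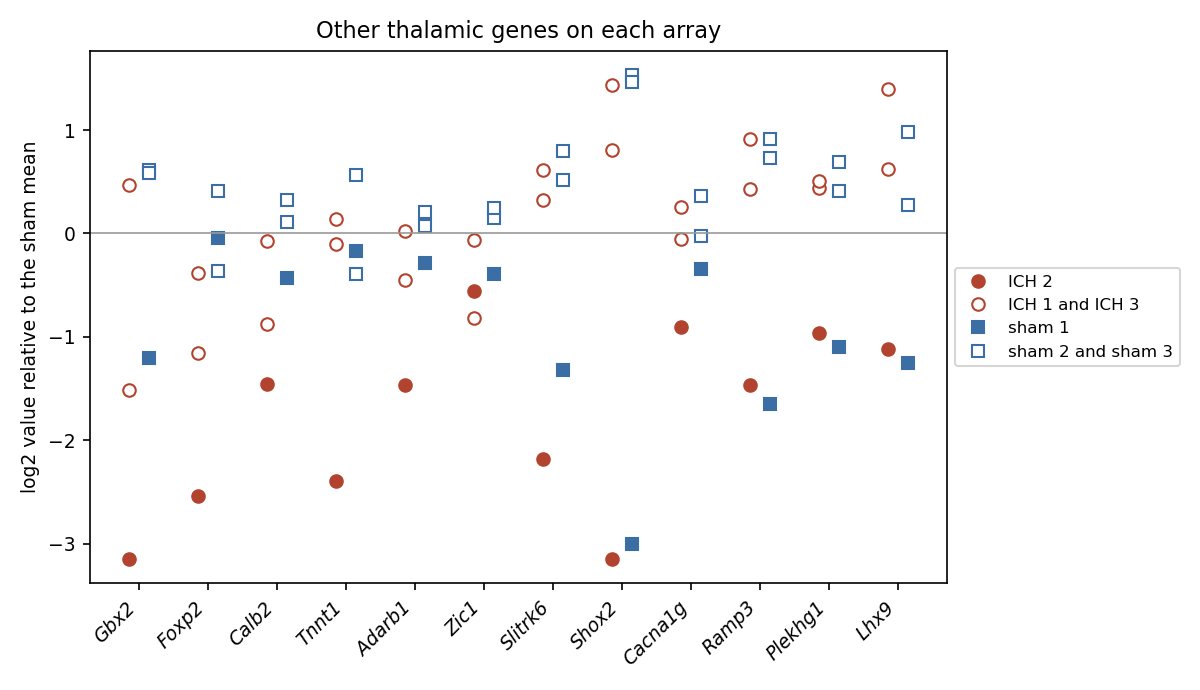
Log2 value relative to the sham mean (vertical axis) of 12 of the 13 other thalamic genes on ICH arrays (red circles) and sham arrays (blue squares), ordered by the difference, with ICH 2 and sham 1 filled. Shox2, Ramp3, Slitrk6, Plekhg1 and Lhx9 are low on both filled arrays, whereas Foxp2, Tnnt1 and Calb2 are low on ICH 2 more than on sham 1.

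Genes listed for neighbouring nuclei had lower means in ICH, with none past the test. Of 5 genes of the habenula, which borders the thalamus, 0 were higher and 5 lower (median -0.73, but 0.19 without ICH 2, -0.08 without sham 3 and -1.19 without ICH 3), with 0 called. The habenular receptor gene Gpr151 stood at -9.16, -9.20 and -1.82 in ICH and -9.33, -5.95 and -1.74 in sham. It was not well above background on ICH 1, ICH 2 and sham 1. Chrna3, a nicotinic receptor subunit, stood at -3.06, -5.23 and -0.19 in ICH and -3.98, -1.52 and 0.03 in sham. ICH 2 and sham 1 were the lowest arrays for Chrna3 and for Gng8, a G protein subunit gene. They were nominally so for Chrnb4, by 0.00028, and for Gpr151, whose lowest 3 arrays have no order because none was well above background. Of 6 genes listed for the reticular nucleus, the GABAergic shell of the thalamus, 0 were higher and 6 lower (median -0.58, and -0.25 without ICH 2). In 0 of them were ICH 2 and sham 1 the lowest arrays. This list holds Gad1, Gad2 and Pvalb, which GABAergic neurons of other regions also use, so it is not specific to the nucleus. Its median relative to the sham means was -0.16, -1.03 and -0.36 on ICH 1 to 3. On sham 1 to 3 that median was 0.06, -0.04 and -0.12. Six3, a homeobox gene, stood at -6.15, -8.53 and -6.32 in ICH and -6.14, -5.45 and -6.26 in sham, not well above background on ICH 2, and Ecel1, a peptidase gene, differed by -0.74 ± 0.30.

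Markers of other regions and cells were set beside the thalamic genes; their part in the result was not tested. Of 8 hypothalamic genes 0 were higher and 8 lower (median -0.93, but -0.43 without ICH 2 and -1.64 without ICH 3), and 3 of them, Pmch, Hcrt and Pomc, were lowest on ICH 2 and sham 1. The hypothalamic peptide gene Npvf differed by -2.66 ± 0.61 (adjusted p = 0.299 by limma) and Sim1 by -1.51 ± 0.68, not well above background on ICH 1, ICH 2 and sham 2. Of 5 midbrain genes 4 were higher and 1 lower (median 0.51, but -0.10 without ICH 1, 1.30 without ICH 2, 0.32 without ICH 3 and 0.26 without sham 2). Th, the enzyme of dopamine synthesis, stood at 1.01, -2.86 and 0.66 in ICH and -1.70, -1.24 and -0.86 in sham. The choroid plexus list was lowest on sham 1 as well: its median stood at 0.91, -0.09 and 2.17 on ICH 1 to 3, against -1.14, 1.61 and -0.48 on sham 1 to 3. Of its 8 genes 7 were higher and 1 lower (median 0.92, but 0.35 without ICH 3, 0.43 without sham 1, 1.59 without ICH 2 and 1.80 without sham 2). Kl and Clic6 of this list differed by 1.52 ± 1.07 and 1.26 ± 1.04, Kl not well above background on sham 1 and sham 3 and Clic6 on those and ICH 2.

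Cortical and striatal markers had another order of arrays. Of 8 cortical genes 7 were higher and 1 lower in ICH, with list medians of 0.79 to 0.98 on ICH arrays and -0.41 to 0.35 on sham arrays. Neurod6, a factor of forebrain excitatory neurons, differed by 2.03 ± 0.16 (adjusted p = 0.0724 by limma). Of 10 striatal genes 0 were higher and 10 lower, with medians of -1.32 to -0.88 on ICH arrays and -0.68 to 0.35 on sham arrays, where sham 3 was near the ICH arrays. Drd1 and Rgs9, of dopamine signalling, differed by -1.77 ± 0.56 and -1.52 ± 0.42. In 0 of the 18 genes of both lists were ICH 2 and sham 1 the lowest arrays. Of 4 hippocampal genes 2 were higher and 2 lower, with Fibcd1 at 1.73 ± 0.22 and Spink8 at -1.27 ± 0.44.

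The labelled tissue, brain, was checked with genes of neurons in general. Of 9 such genes 4 were higher and 5 lower, with medians of -0.15 to 0.07 on ICH arrays and -0.04 to 0.01 on sham arrays (difference -0.14, but 0.09 with quantile normalization and -0.04 without ICH 2). Snap25, a synaptic fusion gene, stood at 2.56, 2.96 and 2.67 in ICH and 2.54, 2.38 and 2.52 in sham. Nefl and Syt1 had the largest differences, 0.65 ± 0.28 and 0.63 ± 0.14. Tubb3, Uchl1 and Map2 went the other way, by -0.60 ± 0.25, -0.48 ± 0.15 and -0.43 ± 0.17. All ICH arrays lay above all sham arrays for 2 of the 9 and below them for 4, beside 10.3% and 17.3% of all rows. The list median does not describe its single genes. Oligodendrocyte genes were 0 higher and 10 lower of 10 (median -0.21, but -0.08 without ICH 2 and -0.42 without ICH 1), and 4 of them, Cnp, Mog and Mobp included, were lowest on ICH 2 and sham 1. Mbp and Mag, of myelin, differed by -1.11 ± 0.46 and -0.43 ± 0.16.

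Genes of endothelium, T cells, myeloid cells and reactive astrocytes were set beside Lef1 and Rgs16. Of 8 endothelial genes 2 were higher and 6 lower, with medians of -0.50 to -0.23 on ICH arrays and -0.04 to 0.01 on sham arrays, and Kdr and Pecam1 differed by -0.61 ± 0.22 and -0.59 ± 0.22. The median of T cell genes stood at -0.51, 1.21 and -1.15 on ICH 1 to 3, against -1.89, 0.99 and 0.90 on sham 1 to 3. It was low on sham 1, as Lef1 and Rgs16 were, and high on ICH 2, where Lef1 was low and Rgs16 was not. On ICH 1 and ICH 3 the T cell median was low, whereas Rgs16 was not. Any link between them was not tested. Of the 6, 3 were higher and 3 lower (median 0.05, and between -0.56 without sham 1 and 0.39 without sham 2, with -0.46 without ICH 2). Cd3e, of the T cell receptor complex, differed by 0.74 ± 0.99 and Cd4 by -0.70 ± 0.18. For myeloid genes the median was 2.73, 3.26 and -0.24 on ICH 1 to 3, while sham arrays lay between -0.32 and 0.23, and 7 of 8 were higher and 1 lower (median 1.95, and 1.27 without ICH 2 or 3.01 without ICH 3). Spp1 differed by 2.72 ± 0.64. The matrix protease gene Mmp9 was well above background on 0 of 3 sham arrays and was higher in ICH by at least 13.7-fold (adjusted p = 0.179 by limma), taking for each sham array the smallest value among its probes that passed that limit. Reactive astrocyte genes had a median of 0.91, 1.05 and -0.34 on ICH 1 to 3, while the sham arrays lay between -0.00 and 0.10, with 6 higher and 1 lower of 7 (median 0.50, but 0.30 without ICH 1, 0.23 without ICH 2 and 0.98 without ICH 3), Serpina3n at 5.81 ± 1.56 and Lcn2 at 3.52 ± 1.36. On sham 1 to 3, Serpina3n stood at -7.57, -6.26 and -6.34 and Lcn2 at -2.77, -2.31 and -2.34, lowest on sham 1 in both. Relative to its sham mean, Serpina3n stood at 6.93, 8.36 and 2.13 on ICH 1 to 3. Lcn2 stood at 4.78, 5.58 and 0.20 relative to its own sham mean. ICH 1 and ICH 2 thus carried most of both differences, and ICH 3 was close to the sham arrays for Lcn2.

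**Figure D5:**
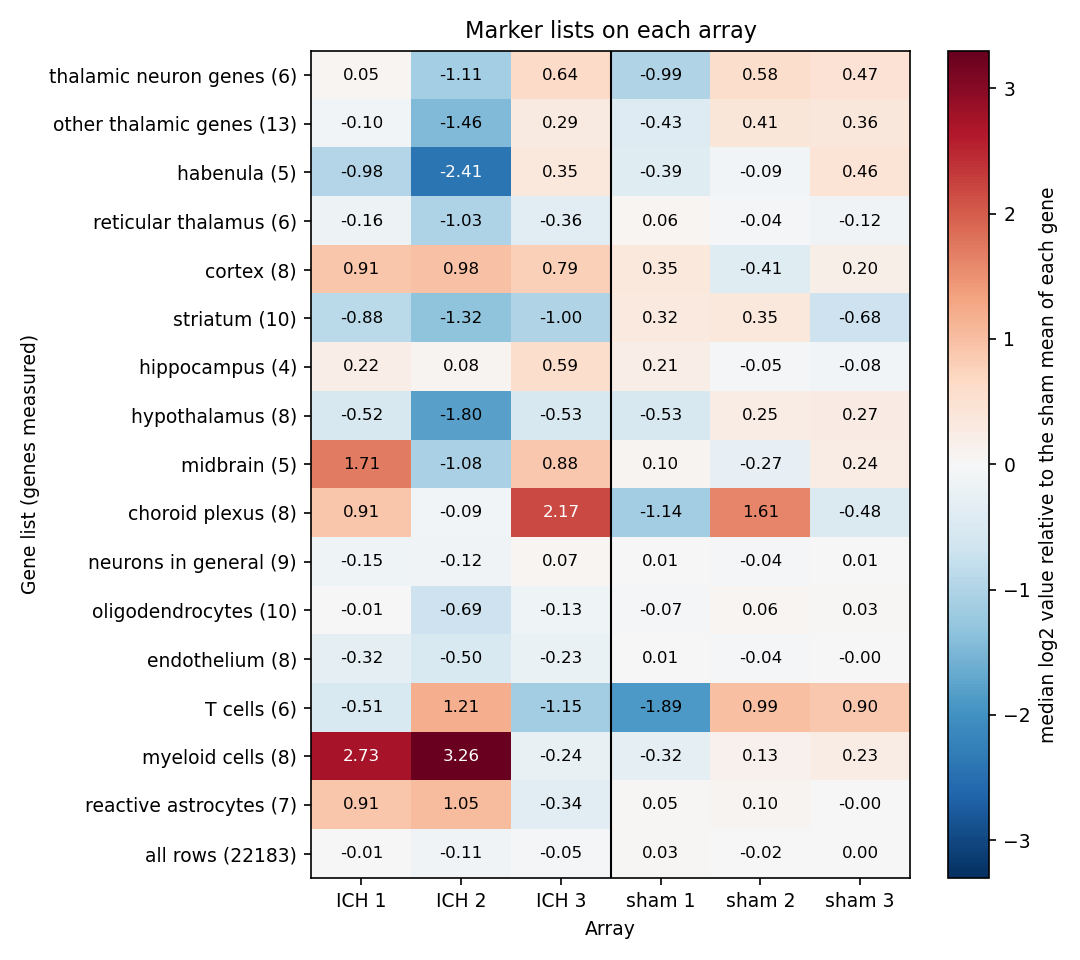
Median over the measured genes of each list (rows, number of genes in brackets) of the log2 value relative to the sham mean of the gene, on each array (columns, ICH left of the line and sham right). The 6 thalamic neuron genes and the other thalamic genes are lowest on ICH 2 and sham 1, the reticular list on ICH 2 alone, and the cortical list splits by group. The striatal list is at -0.68 on sham 3, near ICH 1 at -0.88, and the median of neurons in general stays between -0.15 and 0.07.

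The genes whose values over the 6 arrays were most like those of each gene were ranked by the root mean square difference of log2 values centred on the mean of the gene, over the other 12964 named genes. For Slc17a6 they were Grid2ip, Tafa4 and Cpne9, at 0.15 each. For Prkcd they were Chrna4 (0.15), Plvap (0.19) and Cfi (0.20), with Lef1 as the fourth at 0.22. Chrna4, a nicotinic receptor subunit gene, stood at -0.45, -2.21 and -0.41 in ICH and -2.09, -0.49 and -0.41 in sham. For Lef1 they were Fgf10 (0.12), Syt9 (0.12) and Cidea (0.13), and Prkcd ranked 10 and Slc17a6 19. For Ntng1 they were Plekhg1 (0.25), Cfi (0.29) and Cidea (0.30), with Lef1 at rank 9. Rgs16 was nearest to Tmprss15, Hist1h2an and Ptger3 (0.25 to 0.26), and the other thalamic genes ranked far down its order, with Ntng1 nearest at rank 739. Lhx2 was nearest to Fgf13 (0.05), Mfsd4a (0.05) and Ccnt2 (0.06), and the nearest other gene of the 6, Rgs16, ranked 11634. The measure is not scaled by spread. Lhx2 had an SD of 0.27 over the 6 arrays, against 0.72 (Rgs16) to 1.02 (Prkcd) for the others. Genes of larger spread therefore rank far from Lhx2 whatever their order of arrays. In the order of Ntng1, Slc17a6 ranked 94 and Rgs16 197, so Rgs16 was not far from Ntng1 in that order.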

How the data were processed

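Single-channel Agilent arrays of total RNA from 3 ICH and 3 sham samples were used, with groups taken from the sample titles. The scanner software was Agilent Feature Extraction, version 11.5.1.1 per the file headers and 10.7 per the submitters' processing notes. Its processed intensity values had local background removed and a spatial trend corrected, per the file headers. Deposited flags give, for each spot, whether it was saturated, not uniform or well above background. As worked out from the values, the deposited log2 table holds each probe's mean log2 intensity over its spots, less 1 constant per array. That constant lies close to the 75th percentile of the array. The match to a constant shift was within 0.001 for 98.3% to 99.2% of probes, and it does not test the percentile. On ICH 1 the shift was -12.35, where the 75th percentile over all spots, controls included, gives -12.56. The deposited medians ran from -2.77 to -2.61.

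Probes were kept if at least 0.5 of their spots were well above background on at least 3 of 6 arrays. Names came from RefSeq (GRCr8) through the transcript accession of the probe: 18355 of 30367 probes had 1 symbol, 12012 none and 0 several. The probe with the highest mean stood for a gene, and probes without a symbol stayed, giving 22183 rows, 12965 named. The fit was lmFit followed by eBayes (limma 3.58.1, R 4.3.3) with 6.13 degrees of freedom and no covariate, with Benjamini-Hochberg adjustment over all rows at a threshold of 0.05. It was checked on simulated data. Spots marked not uniform were kept. Tables used Python 3.11.15, pandas 2.3.3 and scipy 1.17.1, and figures matplotlib 3.10.9.

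Genes and the 24 lists were chosen with earlier results of these data known. Named were all 6 genes, for each list the 2 with the largest difference, and the 3 genes most alike; other genes were chosen after their values were seen. Some genes that this rule names are not reported here. Alternatives were other sources, background correction, scalings, filters, probe rules and variance, blocks for the replicate number and slide row, and each array left out. Same-numbered arrays correlated at -0.19, -0.01 and 0.07 in their deviations across rows, so the numbers were not taken as pairs.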

Additional observations from a re-analysis of the deposited data

How the results depend on the processing

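None of the 6 genes passed under any of the 19 settings, with adjusted p from 0.170 (Rgs16) to 0.998 (Prkcd and Ntng1) by limma. Slc17a6 stayed lower in ICH and Rgs16 higher in all of them. With 1 array left out the differences ran from -0.70 to 0.61 for Prkcd, -0.71 to 0.39 for Lef1, -0.64 to 0.36 for Ntng1 and -0.019 to 0.31 for Lhx2, so their direction depends on single arrays. Centring on 5 spike-in probes moved the median of all rows to 0.39, against -0.05, and gave 0.37 for Prkcd, 0.20 for Lef1 and 0.42 for Ntng1, near that median. With the slide row as a block, which leaves ICH 1 against sham, Prkcd stood at 0.57, Lef1 at 0.16 and Lhx2 at -0.11. Quantile normalization gave 0.0066 for Prkcd and the mean of both probes 0.0044 for Ntng1, both within their error. Among all rows, limma called 0, but 3 with normexp, 41 with spike-in centring, 4 with the filter on all 6 arrays, 4 with an intensity trend, and 0 to 33 with 1 array left out, 33 without ICH 3 and 8 without ICH 2. The cause of these calls was not tested. With the replicate block 0 rows were called and no call on the 6 genes changed; the replicate number left every difference as it was and 2413 rows, not 3267, at an unadjusted p under 0.05. Without ICH 2 and sham 1 together, chosen after the data were seen, the median of the 6 was -0.04. Normexp used median spot signals. With 3 arrays a group, the 95% intervals leave differences of over 1 on the log2 scale not excluded for 5 of the 6 genes.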
